A study of Mus musculus with 8 samples.

Results

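The genes described here are 9 contractile and actin-binding genes, Tagln, Acta2, Tpm1, Tpm2, Myl9, Cnn1, Tagln2, Actn1 and Cald1, of 31053 genes listed in the count tables. They were chosen by gene symbol because transcription of several of them was higher in mutant than in wild type mature osteoblasts of these same libraries. Their differences between genotypes in osteoblasts are therefore a description. Where the fit across all genes calls a member in osteoblasts, the call is printed beside the share of all genes called and nothing is read from it. The libraries were made from parietal bone of newborn pups (P4-5) of the strain B6.129(FVB)-Col1a2tm1Mcbr/J, in which a cysteine replaces a glycine of the triple helix of the pro-α2 chain of type I procollagen. Wild type (WT) pups gave libraries S1, S2, S5 and S6, heterozygous (Het) pups gave S3, S4, S7 and S8, and each library held cells pooled from several pups of 1 genotype, so that the library was the replicate (n = 4 per genotype). The bones were digested with collagenase and no cells were sorted. S1 to S4 were made with version 3 and S5 to S8 with version 3.1 of the 10x 3′ kit, and a different release of the counting software went with each, so that the kit and the software cannot be told apart.

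Acta2 encodes smooth muscle α-actin and Tagln encodes transgelin, an actin-binding protein that is a classical marker of smooth muscle cells and myofibroblasts. Tropomyosins (Tpm1, Tpm2), calponin (Cnn1) and caldesmon (Cald1) lie along actin filaments and regulate their use by myosin, Myl9 encodes the regulatory light chain of smooth muscle and non-muscle myosin II, Tagln2 is a widely expressed relative of transgelin, and Actn1 encodes α-actinin, which crosslinks actin filaments and anchors them at focal adhesions. In bone, such genes mark pericytes and smooth muscle cells of vessels and also mesenchymal progenitors of the osteoblast lineage, and many of them are transcribed through serum response factor (SRF) with its actin-sensing partners, the MRTFs, which bind DNA at a short A/T-centred motif named the CArG box.

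In the GRCm38 annotation (GENCODE M21), Tagln lies on chromosome 9 from 45929619 to 45936058, on the minus strand. Acta2 lies on chromosome 19 from 34241090 to 34255590 (minus strand), Tpm2 on chromosome 4 from 43514711 to 43523765 (minus strand) and Myl9 on chromosome 2 from 156775420 to 156781658 (plus strand). Tpm1 (67022590 to 67049406, minus strand) and Cnn1 (22099216 to 22109630, plus strand) share chromosome 9 with Tagln. Tagln2 is on chromosome 1 from 172500047 to 172507380 (plus strand), Actn1 on chromosome 12 from 80167547 to 80260371 (minus strand) and Cald1 on chromosome 6 from 34598500 to 34775473 (plus strand).

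The CArG box was searched for in the RefSeq promoter windows (GRCm38.p6, 250 bases before to 50 bases after the annotated start) of the 8 members that have one (Tagln has none and was not searched), 9 windows in all, since SRF is the regulator most of these genes have in common in textbook accounts. It was read as CCNNNNNNGG, a pattern that is its own reverse complement, with at most 1 C or G among the 6 central bases. Such a motif occurred in the windows of Myl9 and Acta2, that is in 2 of the 9, and in 9.98% of all 32851 windows. Without any C or G in the centre it occurred only in that of Myl9, and in 1.63% of all windows. The stretches around the motifs, from 10 bases before the first to 10 bases after the last, are printed with the motifs in capitals. The Myl9 stretch is chr2:156775293-156775384 on the plus strand and the Acta2 stretch chr19:34255388-34255467 on the minus strand.
Myl9: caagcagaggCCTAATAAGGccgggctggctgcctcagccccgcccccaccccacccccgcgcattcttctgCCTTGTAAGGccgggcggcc
Acta2: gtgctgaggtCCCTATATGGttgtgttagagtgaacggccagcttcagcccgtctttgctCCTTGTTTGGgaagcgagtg
The motifs began 161 and 99 bases before the RefSeq start of Myl9 and 84 and 34 bases before that of Acta2. For both genes this RefSeq start lies inside the GENCODE span given above, so the motifs have another distance from the GENCODE start. The Myl9 stretch lies before the GENCODE start of its gene. The Acta2 stretch lies after that of its gene, inside the GENCODE span. The other windows held no such motif, which says only that these letters are not in those windows.

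The 8 libraries held 68625 cell barcodes, of which 46420 passed the limits of at least 500 genes and under 10% mitochondrial UMIs. Osteoblasts (OBs) were cells that had 10 or more Col1a1 UMIs and 2 or more UMIs of each of 2 or 3 of the osteoblast genes Runx2, Sp7 and Ibsp, and numbered 2671 (1706 WT, 965 Het). Following the limits of the study on the Col1a1 share of a cell's UMIs, 379 of them were early (eOBs, under 0.75%), 1217 differentiating (dOBs, 0.75% to 3.5%) and 1075 mature (mOBs, over 3.5%). Rgs5 cells were the 1580 other cells with at least 2 UMIs of Rgs5, a gene of pericytes and vascular smooth muscle, and all the remaining cells were called other cells. Of the kept barcodes, 244 of 46176 distinct ones occurred in more than 1 library, none of them as an OB in both. S1 and S2 stood apart by their haematopoietic-like cells, which numbered 2489 and 2134 against 14 to 653 in each of the other libraries.

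The labels of the classes were checked on genes the selection did not use. Alpl, the alkaline phosphatase of mineralizing cells, had a median over the libraries of 506 CPM (counts per 1000000, the UMIs of a gene over all UMIs of the summed cells) in OBs, 16.9 in Rgs5 cells and 42.6 in other cells. Rgs5 cells also held the pericyte and smooth muscle genes Notch3 (608 to 1113 CPM in single libraries), Abcc9 (452 to 1342) and Myh11 (95.4 to 320), which were not used to select them. Selected by 1 gene, they were not a pure mural class. Endothelial markers summed to 1118 to 3376 CPM in them, against at most 34.6 in mOBs, and chondrocyte markers to 63.5 (S1) to 9984 (S7), above the mural sum in S6 and S7. Haematopoietic and erythroid markers reached 4625 and 36356 CPM in the Rgs5 cells of S2. The eOBs were not a pure class either. Chondrocyte markers summed to 25991 and 18880 CPM in the eOBs of WT S5 and S6 and to 10337 and 10967 in Het S7 and S8. In the same eOBs the 8 osteoblast markers, Col1a1 among them, summed to 6147 to 8064. In S1 to S4 the chondrocyte sum in eOBs was 31.1 to 3295. Endothelial markers reached 1793 in the eOBs of S7. The part of such cells in the levels of the members was not tested.

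In mOBs, Tagln had the largest log2 fold change between genotypes in the fit of all 8 libraries, although Acta2 differed more within kit version 3 (2.28, against 1.84 for Tagln). Tagln made up 10.2 and 8.0 CPM in WT S1 and S2 and 61.3 and 15.4 in Het S3 and S4, which shared their kit. In kit version 3.1 it was at 71.1 and 87.2 in WT S5 and S6 and at 272 and 277 in Het S7 and S8. Both Het libraries lay above both WT libraries within each kit version, whereas the 4 WT and 4 Het libraries overlapped across kit versions (44.1 ± 41.0 in WT and 156 ± 138 in Het, mean ± SD, n = 4 each). With the kit version in the model, the log2 fold change of Het over WT was 1.76 with a standard error (SE) of 0.30.

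Acta2 showed the same arrangement. Its level in mOBs was 12.6 and 15.9 CPM in WT S1 and S2, 104 and 48.7 in Het S3 and S4, 132 and 99.3 in WT S5 and S6, and 212 and 343 in Het S7 and S8. The log2 fold change was 1.54 (SE 0.29). The ratio of Acta2 to Tagln UMIs in mOBs had a median of 1.55 in WT and 1.47 in Het libraries, with ranges of 1.14 to 2.0 and 0.78 to 3.16.

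Tpm2, the tropomyosin also called β, was at 46.8 and 46.3 CPM in WT S1 and S2 and at 80.6 and 66.9 in Het S3 and S4, then at 172 and 168 in WT S5 and S6 and at 295 and 232 in Het S7 and S8. Its log2 fold change was 0.58 (SE 0.11), smaller than that of Tagln and Acta2 but with little spread between libraries of a kind. Tagln, Acta2 and Tpm2 were the 3 of 8 measurable members with both Het libraries above both WT libraries in each kit version, an arrangement that 7.59% of all 9623 genes tested had. The same 3 passed the test across all genes (edgeR quasi-likelihood, adjusted p under 0.05), which 0.509% of the 9623 genes did. With 1 library left out, 0 members passed without S1, S2 or S6, 1 without S4 (Tagln) or S5 (Acta2), 2 without S3 or S7 (Tagln and Acta2), and 3 without S8 (Tagln, Tpm2 and Tagln2). These fits called 19 of 10070 genes without S1, 11 of 10078 without S2, 23 of 10057 without S3 and 16 of 9792 without S4. They called 56 of 9633 without S5, 26 of 9647 without S6, 166 of 9623 without S7 and 154 of 9990 without S8. Without kit version in the model 0 members passed, as did 0 of all 9623 genes. The members were chosen on this contrast, so nothing is read from any of these counts.

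**Figure D1:**
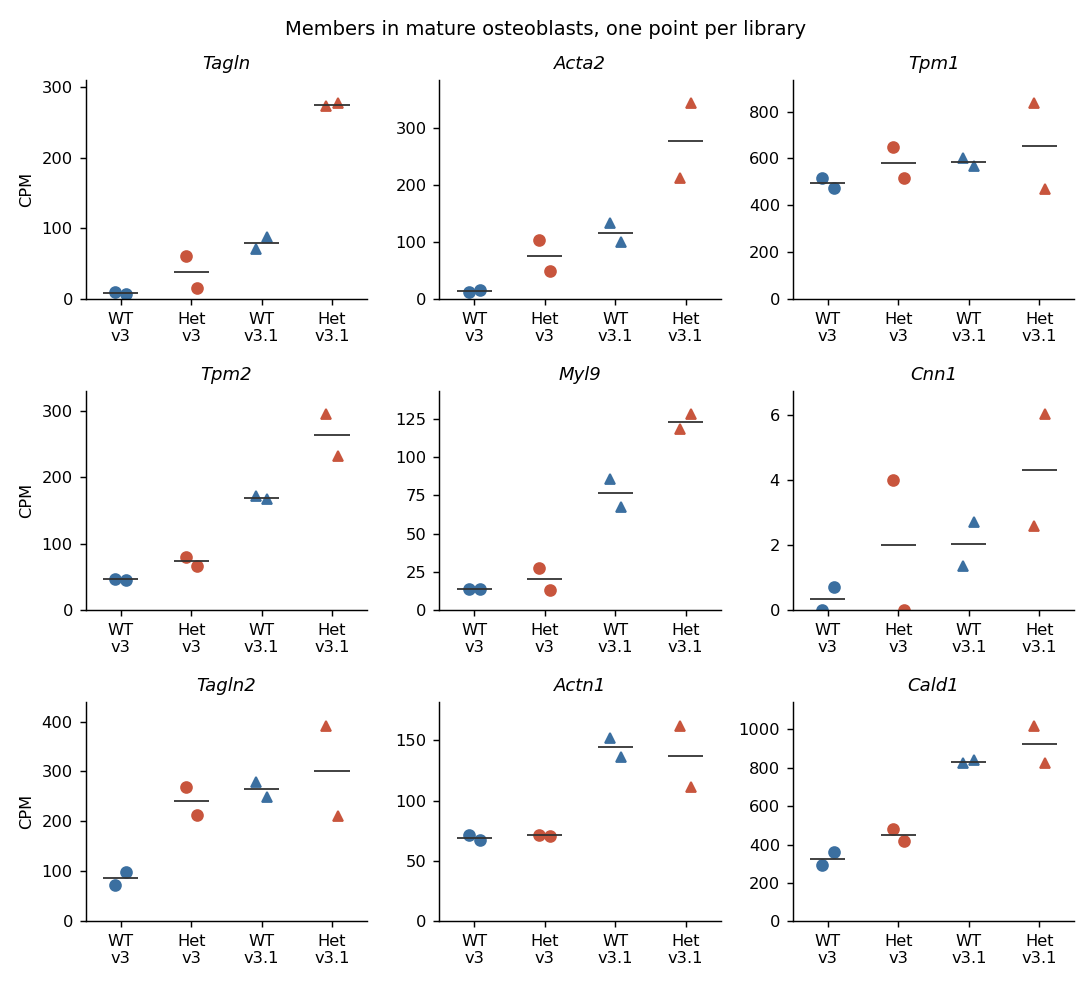
CPM of each member (y axis, from 0, a different range in each panel) summed over the mOBs of a library, by genotype and kit version (x axis). Each point is 1 library (WT blue, Het red, circles kit version 3, triangles version 3.1) and the line is the mean of the pair. Tagln, Acta2 and Tpm2 have both Het points above both WT points in each kit version, while the Actn1 points overlap.

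The other members did not share this arrangement. Myl9 was at 13.8 and 13.7 CPM in WT S1 and S2 and at 27.3 and 13.3 in Het S3 and S4, an overlap, whereas in kit version 3.1 it was higher in Het (118 and 128) than in WT (85.7 and 67.4). Its log2 fold change was 0.54 (SE 0.19). Tagln2 differed in kit version 3 (73.8 and 99.1 in WT, 270 and 213 in Het) and overlapped in version 3.1 (278 and 250 in WT, 392 and 211 in Het), with a log2 fold change of 0.73 (SE 0.25).

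Cald1 had a log2 fold change of 0.23 (SE 0.12), Tpm1 of 0.12 (SE 0.15) and Actn1 of -0.08 (SE 0.11), with overlapping libraries in at least 1 kit version for each. Cnn1, the calponin of differentiated smooth muscle, was nearly absent, with 0 to 13 UMIs in the mOBs of a library, and was too low to be tested. Both Het libraries thus lay above both WT libraries in each kit version for Tagln, Acta2 and Tpm2, in 1 kit version for Myl9, Tagln2 and Cald1 (481 and 419 CPM in Het and 292 and 362 in WT in version 3), and in neither for Tpm1, Actn1 and Cnn1, for which these mOBs do not show the genes as raised. The median log2 fold change of the 8 members measured was 0.56, beside -0.002 for all genes tested.

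On the log2 scale, Tagln and Acta2 differed less at the earlier stages, where their mean levels were higher. In mOBs the Acta2 means were 65.1 CPM in WT and 177 in Het, so in CPM its difference was not smaller in dOBs. The stages were not tested against each other. In dOBs, Acta2 was at 329 ± 35.5 CPM in WT and 481 ± 98.3 in Het libraries (mean ± SD, n = 4 each; log2 fold change 0.54, SE 0.15) and its Het libraries lay above the WT libraries in kit version 3.1 and overlapped them in version 3. Tagln in dOBs was at 203 ± 29.5 in WT and 254 ± 44.3 in Het (log2 fold change 0.32, SE 0.14). Cnn1 went the other way, with 11.4 ± 0.89 CPM in WT and 7.36 ± 1.99 in Het and no overlap of the 4 and 4 libraries (log2 fold change -0.82, SE 0.24), on 5 to 72 UMIs per library. All 4 Het libraries lay below all 4 WT libraries for 0.568% of the 9857 genes tested in dOBs. None of the 9 members passed the adjusted threshold in dOBs with edgeR or DESeq2, where 0.0101% of 9857 genes did with edgeR (1 gene, and 4 with DESeq2).

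In eOBs, Tagln was at 138, 59.2, 71.8 and 62.2 CPM in WT S1, S2, S5 and S6 and at 269, 196, 85.0 and 198 in Het S3, S4, S7 and S8. The Het libraries were above the WT libraries within each kit version, with a log2 fold change of 1.02 (SE 0.30), and Acta2 differed by 0.58 (SE 0.29) with overlapping libraries. No member passed, as 0% of 8118 genes did with edgeR (0 genes, of which 309 had an unadjusted p under 0.05, and 3 genes with DESeq2). The median over the members tested was 0.14 in eOBs and 0.007 in dOBs. The eOB values are those of a class that also held chondrocyte markers, whose part was not tested.

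The members were lower in mOBs than in dOBs in nearly every library. From dOBs to mOBs, Acta2 was lower in 4 of 4 WT libraries, by a log2 ratio of -2.79 ± 1.53 (SD), and in 4 of 4 Het libraries, by -1.72 ± 0.95. For Tagln the ratio was -2.59 ± 1.34 in WT and -1.34 ± 1.71 in Het, and Het S8 alone had more Tagln in mOBs (277 CPM) than in dOBs (227). Every other member was lower in mOBs than in dOBs in all 8 libraries. The step from eOBs to mOBs was less uniform, since Acta2 was lower in mOBs in 4 of 4 libraries of each genotype but Tagln in 3 of 4 WT and 2 of 4 Het libraries and Tpm2 in 2 of 4 of each. Tagln in Het S7 was at 85.0 CPM in eOBs, 310 in dOBs and 272 in mOBs. These ratios rest on the same libraries and cells as the choice of members and are given without a test.

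Within mOBs the members went on falling with the Col1a1 share, and that share differed between libraries. In WT S1 and S2, 86.3% and 80.5% of mOBs had 6% or more of their UMIs in Col1a1, against 50.6% and 67.2% in Het S3 and S4. In kit version 3.1 the shares were 41.8% and 46.2% in WT and 37.1% and 52.4% in Het. Tagln was at 47.4 to 143 CPM in the WT mOBs with 3.5% to 6% Col1a1 and at 0.66 to 26.5 in those above 6%. Whether the mix of Col1a1 shares had a part in the genotype differences was not tested.

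At a matched Col1a1 range the kit versions parted. Among mOBs with 3.5% to 6% Col1a1, Tagln was at 112 and 47.4 CPM in WT S1 and S2 (10 and 15 cells) and at 109 and 35.0 in Het S3 and S4 (39 and 63 cells), that is with no Het excess. In kit version 3.1 the same range held 126 and 143 in WT S5 and S6 (174 and 112 cells) and 354 and 565 in Het S7 and S8 (66 and 20 cells). Acta2 in this range was at 133 and 116 in WT S1 and S2, 179 and 52.4 in Het S3 and S4, 234 and 162 in WT S5 and S6, and 282 and 688 in Het S7 and S8.

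Above 6% Col1a1, Tagln was at 0.66 and 1.68 CPM in WT S1 and S2 and at 19.9 and 4.38 in Het S3 and S4, where the Het cells still had less Col1a1 (medians of 7.94% and 9.89%, against 12.8% and 11.9% in WT). In kit version 3.1 it was at 10.9 and 26.5 in WT and at 115 in Het S7 but 2.93 in Het S8, whose 22 cells had a median Col1a1 share of 13.5%. In this upper range S3 and S7, the libraries with the lowest median Col1a1 share (both 7.94%), were the Het libraries with the most Tagln, an order that was not tested. Acta2 above 6% Col1a1 was at 1.31 and 0 CPM in WT S1 and S2 (63 and 62 cells) and at 38.6 and 46.5 in Het S3 and S4 (40 and 129 cells). In kit version 3.1 it was at 21.2 and 31.7 in WT S5 and S6, 76.4 in Het S7 and 14.7 in Het S8. Het libraries of version 3 thus had more Acta2 than WT in the upper range, while those of version 3.1 lay on both sides of WT.

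Giving the 2 Col1a1 ranges equal weight, the log2 ratio of Het over WT for Tagln was 0.05 in kit version 3 and 1.69 in version 3.1, beside 1.62 and 1.73 with the cells as they were (ratios of mean levels + 5 CPM, a reading added after the values were seen and not tested). For Acta2 it was 0.32 and 1.21 beside 2.08 and 1.23. For Tpm2 it was -0.71 and 0.58 beside 0.61 and 0.62, and for Myl9 -0.72 and 0.62 beside 0.43 and 0.65. Averaged over the kit versions the equal-weight ratio was 0.87 for Tagln, 0.76 for Acta2 and 0.01 for Cald1. It was -0.07 for Tpm2, -0.05 for Myl9 and -0.05 for Tpm1, all of which were above 0 with the cells as they were (0.61, 0.54 and 0.19). For Tagln2 it was 0.87 and 0.14 beside 1.43 and 0.19. At 3.5% to 6% Col1a1 the Het excess of Tagln and Acta2 was seen in kit version 3.1, on 66 and 20 Het cells, and not in version 3, on 10 and 15 WT cells. Above 6% it was seen in version 3, where the Het cells had less Col1a1, and in 1 of the 2 Het libraries of version 3.1.

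**Figure D2:**
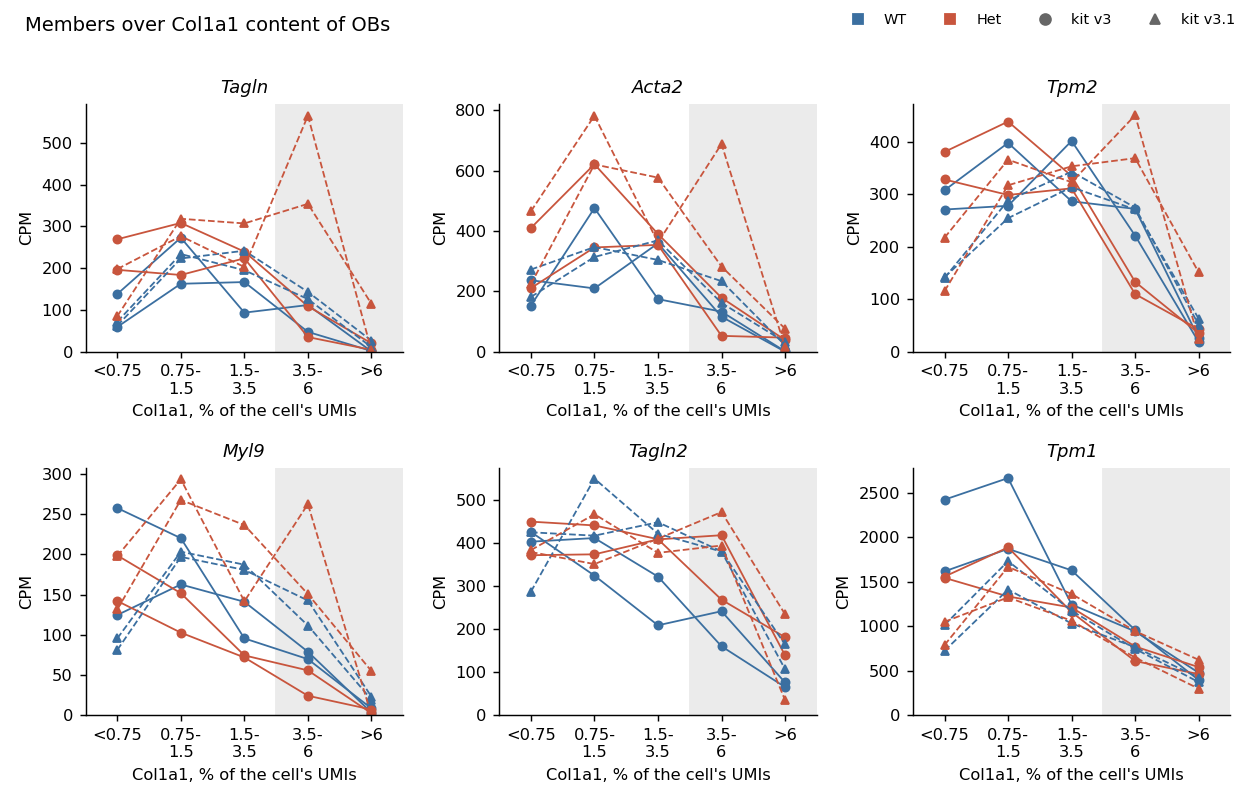
CPM of 6 members (y axis, from 0) in OBs grouped by the Col1a1 share of their UMIs (x axis, percent), 1 line per library (WT blue, Het red, circles and solid lines kit version 3, triangles and dashed lines version 3.1). The shaded ranges are mOBs. All 6 members are lowest or near lowest above 6%, and the Het lines of kit version 3.1 stand above the others at 3.5% to 6% for Tagln (354 and 565 CPM).

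UMIs of Tagln and Acta2 were not detected in every mOB. After each cell was thinned to 2000 UMIs, which left out 8 WT and 2 Het mOBs, a Tagln UMI was found in 1.37%, 1.30%, 13.4% and 13.0% of mOBs in WT S1, S2, S5 and S6 and in 7.59%, 2.08%, 20.2% and 22.0% in Het S3, S4, S7 and S8. Without thinning a Tagln UMI was found in 5.48% (S1) to 48.6% (S7) of mOBs and an Acta2 UMI in 3.90% (S2) to 55.2% (S7). The means for Tagln were 20.8% ± 15.3 in WT and 26.6% ± 16.4 in Het (SD, n = 4 each), at median depths of 15782 and 15425 UMIs per cell. In haematopoietic-like cells, which should lack these transcripts, the thinned share with a Tagln UMI was 0.55% ± 0.38 in WT and 3.47% ± 3.27 in Het libraries, at median depths of 4603 and 3696 UMIs. Thinning left out 636 of 4912 WT and 207 of 885 Het cells of this kind. The Het mean rests in part on S7 and S8, which had 21 and 14 such cells before thinning, with 3 and 1 Tagln UMIs.

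WT mOBs of kit version 3 had about as little Tagln and Acta2 as cells that should lack them. Tagln in haematopoietic-like cells was at 9.28 and 10.6 CPM in S1 and S2, beside 10.2 and 8.0 in the mOBs of those libraries, and at 24.0 and 14.8 in S3 and S4, beside 61.3 and 15.4. Acta2 was at 22.9 and 12.1 in the haematopoietic-like cells of S1 and S2, beside 12.6 and 15.9 in mOBs. In these WT libraries and, for Tagln, in Het S4 the mOB level was close to or below that of haematopoietic-like cells, and the fold changes within kit version 3 are ratios to levels of that size. Where the counts in haematopoietic-like cells came from was not tested. In kit version 3.1 the mOB levels of Tagln, 71.1 to 277 CPM, stood above those of haematopoietic-like cells, 2.35 to 19.1, although S7 and S8 had only 21 and 14 such cells.

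A few cells carried much of the signal. The 5% of mOBs with the most Tagln held 46.2% and 45.8% of its UMIs in WT S5 and S6 and 46.0% and 42.9% in Het S7 and S8, with up to 112 UMIs in 1 cell of S7. Without these cells Tagln was at 40.7 and 49.5 CPM in WT S5 and S6 and at 157 and 166 in Het S7 and S8, so that Het remained above WT. In kit version 3 the same step left 0 and 3.31 in WT S1 and S2 and 21.7 and 4.06 in Het S3 and S4. Acta2 without its top 5% of cells was at 67.1 and 60.8 in WT S5 and S6 and at 124.6 and 228 in Het S7 and S8.

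Mural cells, the pericytes and smooth muscle cells around vessels, transcribe several of the members, and markers of mural cells were examined in OBs. The 7 mural markers (Rgs5, Myh11, Notch3, Des, Kcnj8, Abcc9 and Higd1b) summed to 15.9 to 22.2 CPM in WT and 4.51 to 26.6 in Het mOBs, beside 5855 to 9700 in Rgs5 cells. Myh11, the smooth muscle myosin heavy chain, had 0 UMIs in the mOBs of all 4 WT libraries and of S4 and S8, 3 in S3 and 2 in S7. Rgs5 was at 0.62 to 1.80 CPM in WT and 1.5 to 6.76 in Het mOBs, and was too low to be tested. Kcnj8, a potassium channel subunit of pericytes, had 13 UMIs in the mOBs of Het S3 (8.66 CPM), 2 in S4, 1 each in WT S5 and S6 and 0 in the other libraries. Des and Higd1b had at most 1 UMI in any library.

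The ratio of Rgs5 to Tagln UMIs was 0.01 to 0.18 in WT mOBs and 0.01 to 0.32 in Het mOBs, against 3.11 to 30.1 in Rgs5 cells of the same set of libraries. With OBs that had any mural marker UMI left out, Tagln differed by 1.83 (SE 0.27), Acta2 by 1.55 (SE 0.20) and Tpm2 by 0.70 (SE 0.14) on the log2 scale in mOBs, as large as with these OBs. Markers of other cells and of progenitors also moved between libraries. Suture mesenchyme and osteoprogenitor markers summed to 1323 to 1378 CPM in the mOBs of S1 to S4. In kit version 3.1 they were at 9241 and 9984 in WT S5 and S6 and at 13225 and 8205 in Het S7 and S8. Endothelial markers were at 15.0 and 11.6 in WT S1 and S2 and 34.6 and 27.7 in Het S3 and S4. In version 3.1 they were at 19.1 and 11.7 in WT and 20.8 and 7.52 in Het. Fibroblast markers summed to 13.0 to 29.5 CPM in WT and 17.2 to 95.1 in Het mOBs, and chondrocyte markers to 31.2 to 1024 and 240 to 2642. Haematopoietic markers went the other way, with 671 and 488 CPM in the mOBs of WT S1 and S2, 32.0 and 164 in Het S3 and S4, and at most 17.8 in kit version 3.1. Erythroid markers summed to 71.5 to 8859 in WT (highest in S2) and 21.1 to 1889 in Het mOBs. Their part in the differences of the members was not tested. With OBs holding at least 3 detected markers of another class left out, 6 and 4 mOBs remained in Het S7 and S8, under the minimum of 10, so the fit had 6 libraries and no Het library of kit version 3.1. Its log2 fold changes were 1.5 (SE 0.55, adjusted p = 0.16) for Tagln, 1.5 (SE 0.54, adjusted p = 0.14) for Acta2 and 0.32 (SE 0.26, adjusted p = 0.63) for Tpm2, which were no longer called, and 1.39 (SE 0.20) for Tagln2, the 1 member called in a fit that called 4.67% of 8145 genes.

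At the earlier stages the mural markers were higher. They summed to 44.9 to 129 CPM in WT and 70.4 to 148 in Het dOBs, where Rgs5 was at 16.9 ± 15.7 in WT and 45.5 ± 21.9 in Het (SD, n = 4 each; log2 fold change 1.10, adjusted p = 0.58 with edgeR). The other mural markers tested there had the opposite sign, with -0.34 for Abcc9 and -0.06 for Notch3, as in mOBs, with -1.19 for Abcc9 and -0.49 for Notch3 (adjusted p = 0.23 and 0.59). In eOBs they summed to 212 to 569 in WT and 88.2 to 2175 in Het, the highest being S7. With OBs holding a mural marker UMI left out, the log2 fold changes in dOBs were 0.51 (SE 0.19) for Acta2 and 0.28 (SE 0.20) for Tagln. In eOBs the same step left S2 with 6 cells, below the minimum, and over the 7 other libraries gave 0.06 (SE 0.51) for Tagln and -0.11 (SE 0.48) for Acta2, beside 1.02 and 0.58 with all eOBs. With OBs holding markers of another class left out, dOBs of 6 libraries (again without S7 and S8) gave -0.01 (SE 0.28) for Acta2 and -0.32 (SE 0.25) for Tagln. In eOBs of the 5 libraries that kept enough cells (without S6, S7 and S8), Tagln was at 2.11 (SE 0.30, adjusted p = 0.0044), the 1 member called in a fit that called 5.8% of 2310 genes. The Het excess in eOBs and dOBs was thus not kept under each of these selections.

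**Figure D3:**
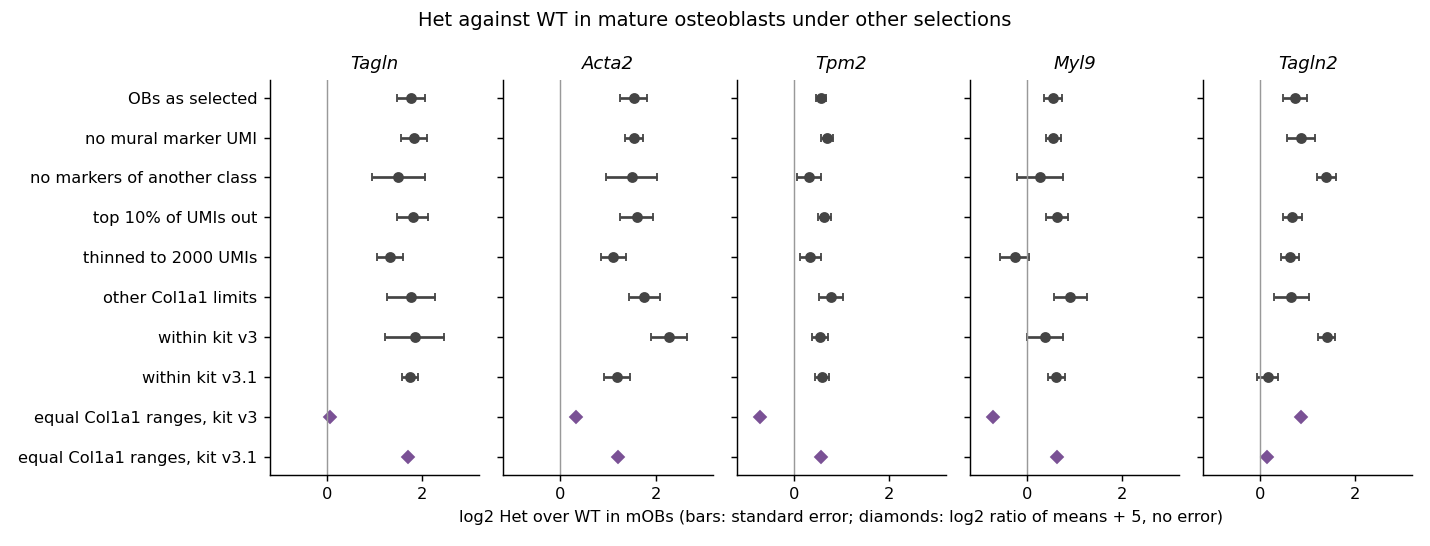
Log2 of Het over WT in mOBs (x axis) for 5 members under other selections of cells or libraries (rows), as the edgeR fold change with its SE (circles and bars) or, for equal weight of the Col1a1 ranges, as the log2 ratio of mean levels + 5 CPM with no error (diamonds). Tagln stays between 1.32 and 1.84 in the rows shown with circles, of which that without markers of another class has 6 libraries and none of Het in kit version 3.1, while its equal-weight value in kit version 3 is 0.05.

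Rgs5 cells of WT and Het pups were compared next, in a contrast that was not used to choose the members. None of the 9 members passed the test (edgeR, adjusted p from 0.60 to 1.0, 0 with an unadjusted p under 0.05 and 0 with DESeq2), in a comparison in which 0.0279% of 10750 genes were called (3 genes). Acta2 was at 1085, 1421, 526 and 925 CPM in WT S1, S2, S5 and S6 and at 2438, 1296, 385 and 573 in Het S3, S4, S7 and S8, a log2 fold change of -0.02 (SE 0.30). The kit versions differed more than the genotypes did. Tagln was at 700, 731, 266 and 356 in WT and at 1461, 740, 248 and 207 in Het Rgs5 cells, with a log2 fold change of 0.08 (SE 0.26). The median of the members was -0.004, beside 0.014 for all genes tested. Within kit version 3 the members' median was 0.32 and within version 3.1 it was -0.39, beside -0.001 and 0.002 for all genes tested. The member with the largest value was Cnn1 (0.72, SE 0.36), at 0.56 to 20 CPM. Whether the genotype difference was larger in mOBs than in Rgs5 cells was not tested, since the mOB part chose the members.

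**Figure D4:**
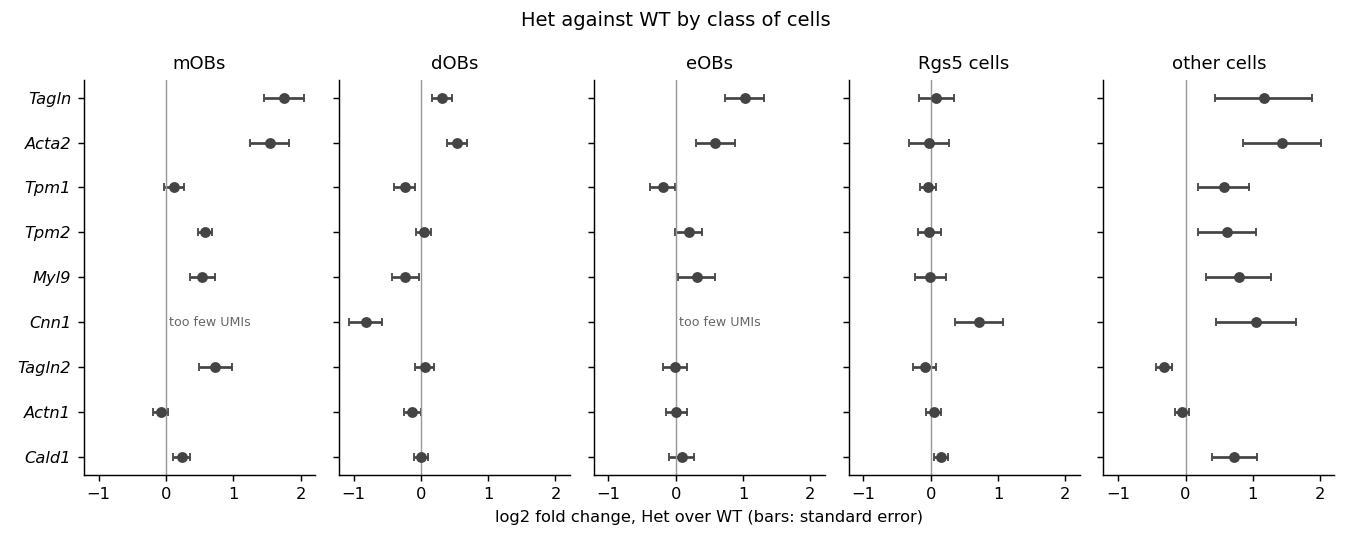
Log2 fold change of Het over WT (x axis, points, with SE as bars) of each member (rows) in mOBs, dOBs, eOBs, Rgs5 cells and other cells. Points lie to the right for Tagln (1.76) and Acta2 (1.54) in mOBs and near 0 for 8 of the 9 members in Rgs5 cells.

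In the other cells no member was called by edgeR (adjusted p from 0.17 to 0.71, with Acta2 and Tagln2 at an unadjusted p under 0.05), and 1 was by DESeq2 (Tagln2, lower in Het). No gene was called by edgeR (0% of 16405 genes, of which 4387 had an unadjusted p under 0.05, and 2175 genes with DESeq2). The fold changes of Acta2 (1.43, SE 0.58), Tagln (1.16, SE 0.72) and Cnn1 (1.05, SE 0.60) were large but so were their errors, and the median of the members was 0.72 beside 0.022 for all genes tested. Tagln was at 29.6 and 29.4 CPM in WT S1 and S2, the libraries rich in haematopoietic-like cells, at 324 and 175 in Het S3 and S4, at 77.7 and 55.9 in WT S5 and S6 and at 51.1 and 44.7 in Het S7 and S8. Within kit version 3 Tagln was higher in Het by 2.79 (adjusted p = 0.010, edgeR), in a fit that called 36.3% of 15545 genes and 7 of the 9 members, and within version 3.1 it was lower, by -0.47 (adjusted p = 0.30), so the difference had no common direction. The makeup of the other cells moved with it and its part in this result was not tested.

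Members were then compared between classes of cells within each library, over all 8 libraries (exact two-sided sign-flip test on log2 of the percent of UMIs with a pseudocount of 5 CPM, adjusted over all genes with a mean of at least 5 CPM over both classes, and with the same calls over the 18 tests of members alone). In Rgs5 cells, 5 of the 9 members were higher than in OBs, beside 44.1% of 11014 genes, so the members' share was near that of all genes. Myl9 was at 472 ± 259 CPM (SD, n = 8) in Rgs5 cells and 117 ± 54.9 in OBs, which is a log2 difference of 1.96 ± 1.39, with Rgs5 cells above OBs in 8 of 8 libraries (exact p = 0.0078, adjusted 0.018). Cald1 (1796 ± 302 against 818 ± 204), Tagln2 (559 ± 100.8 against 316 ± 69.7) and Actn1 (239 ± 23.5 against 152 ± 43.6) gave the same exact p, with Rgs5 cells above OBs in all 8 libraries. Acta2 was at 1081 ± 663 in Rgs5 cells and 252 ± 126 in OBs with the excess in 7 of 8 libraries (exact p = 0.016, adjusted 0.030). The differences were larger in kit version 3 than in version 3.1, with 3.13 and 0.80 for Myl9 and 3.19 and 0.82 for Acta2.

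Tagln, at 589 ± 420 CPM in Rgs5 cells and 148 ± 73.0 in OBs, was higher in 6 of 8 libraries and did not pass (exact p = 0.031, adjusted 0.052). Its mean log2 difference was 3.2 in kit version 3 and 0.44 in version 3.1, and in S7 and S8 its level in mOBs (272 and 277) was above that in Rgs5 cells (248 and 207). Tpm1, the tropomyosin α gene, differed by less than the spread between libraries, with 931 ± 283 in Rgs5 cells and 1027 ± 244 in OBs (log2 difference -0.17 ± 0.55, exact p = 0.38), and neither Tpm2 nor Cnn1 passed, whose differences had opposite signs in kit versions 3 and 3.1 (2.07 and -0.17 for Tpm2, 1.31 and -0.60 for Cnn1).

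Between OBs and other cells only Tpm1 of the 9 members passed, beside 11% of 11045 genes that were higher in OBs by the same rule. It was at 1027 ± 244 CPM in OBs and 493 ± 221 in other cells, a log2 difference of 1.16 ± 0.90 with OBs above other cells in 8 of 8 libraries (exact p = 0.0078, adjusted 0.030). Adjusted over the 18 tests, this call was lost with OBs holding a mural marker UMI left out (1.01, adjusted p = 0.056) and with the stricter OB selection of 3 UMIs (1.03, adjusted p = 0.060). Tagln (148 ± 73.0 against 98.5 ± 103) and Acta2 (252 ± 126 against 208 ± 129) did not pass, with adjusted p of 0.21 and 0.34.

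**Figure D5:**
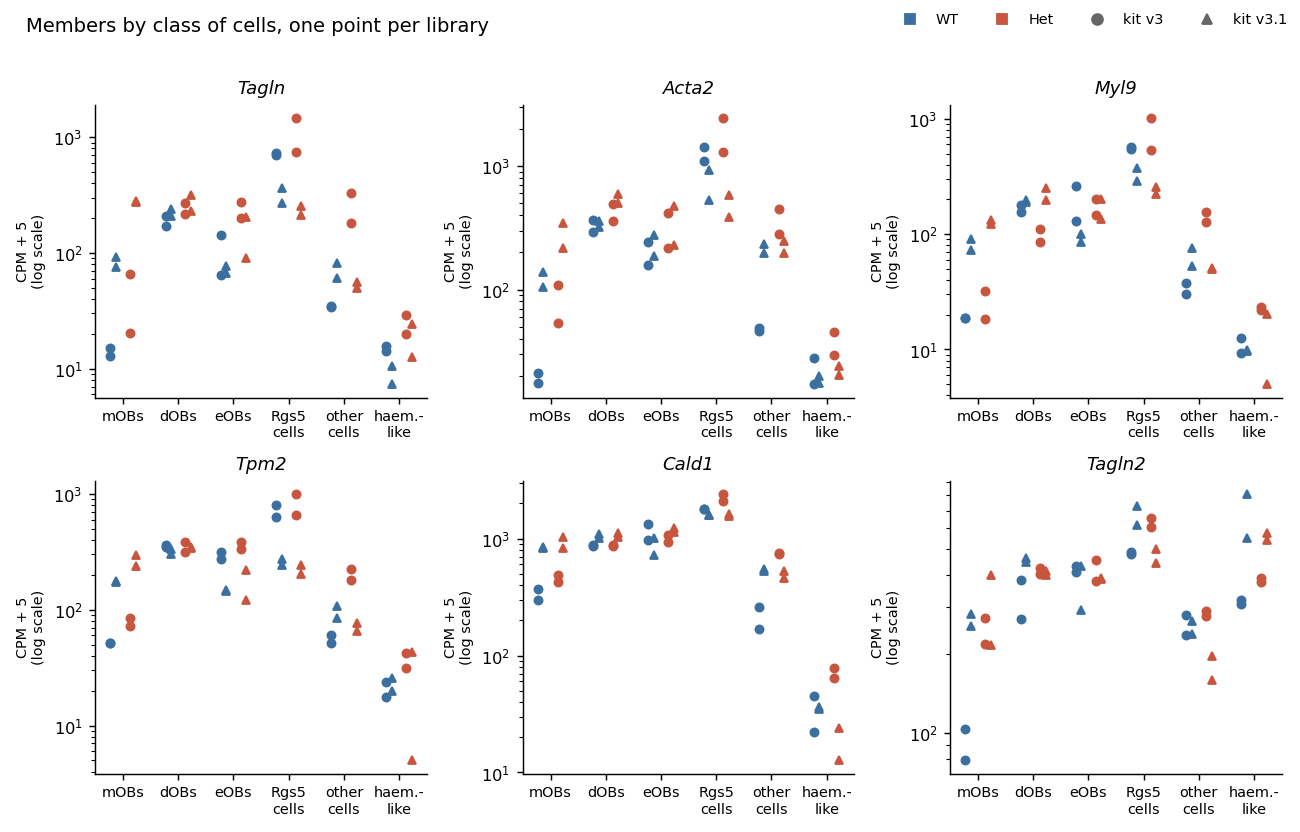
CPM + 5 (y axis, log scale) of 6 members in each class of cells (x axis, "haem.-like" are haematopoietic-like cells, nearly all of which are also part of the other cells and the rest of the Rgs5 cells), 1 point per library (WT blue, Het red, circles kit version 3, triangles version 3.1). Myl9 and Cald1 are higher in Rgs5 cells than in OBs in 8 of 8 libraries, and Tagln and Acta2 of WT S1 and S2 are as low in mOBs as in haematopoietic-like cells.

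The number of Rgs5 cells was also compared. They made up 3.60%, 2.12%, 1.55% and 2.63% of the kept cells of the WT libraries (S1, S2, S5, S6) and 3.76%, 6.09%, 5.37% and 2.99% of those of the Het libraries (S3, S4, S7, S8). Het was 2.06 percentage points above WT in kit version 3 and 2.09 in version 3.1, but S8 lay below S1 (exact permutation test over the 70 assignments, two-sided p = 0.057, adjusted over 2 shares 0.11, with 0.029 the smallest p possible). The total includes the haematopoietic-like cells, of which S1 and S2 held many. Without them in the total, a denominator chosen after seeing the data, the shares were 7.52% and 3.84% in WT S1 and S2 and 3.99% and 6.67% in Het S3 and S4, so that Het minus WT was -0.35 points in kit version 3, 2.06 points in version 3.1 and 0.86 points over all libraries (exact permutation p = 0.57). The share of OBs with at least 1 mural marker UMI was 33.3% ± 10.5 in WT and 30.5% ± 9.03 in Het libraries (SD, n = 4 each, exact permutation p = 0.69), and the difference of Het minus WT was -15.7 points in kit version 3 and 10.1 points in version 3.1. In single libraries it ran from 20.8% (S5, 171 of 821 OBs, 95% Clopper-Pearson interval 18.1% to 23.8%) to 46.5% (S1, 113 of 243 OBs, interval 40.1% to 53.0%).

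The other genes of the contractile apparatus and its control did not pass in mOBs with edgeR. Of 68 genes in 5 lists (actin isoforms, thin filament relatives, myosin and its control, crosslinkers and focal adhesion, and SRF, MRTF, TGFβ and YAP control and targets), 57 were tested and 0 were called by edgeR in either direction. There were 18 with an unadjusted p under 0.05, beside 1088 of all 9623 genes. DESeq2 called 4 of them, Tgfb2 (log2 fold change 0.89), Myl12a (0.55) and the non-muscle myosin heavy chain gene Myh9 (0.52) as higher and Cnn2 (-0.45) as lower in Het, beside 130 of all genes. The median log2 fold change was 0.27 for the 3 other actin isoforms tested, 0.18 for 12 thin filament relatives, 0.19 for 11 myosin genes, 0.20 for 14 crosslinker and focal adhesion genes and -0.02 for 17 SRF, MRTF, TGFβ and YAP genes, beside -0.002 for all genes.

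Among the actins, cytoplasmic γ-actin (Actg1) had a log2 fold change of 0.27 (SE 0.14, adjusted p = 0.51) and β-actin (Actb) of 0.16 (SE 0.14, adjusted p = 0.75). Of the thin filament relatives, Csrp2, a LIM protein of smooth muscle, had 0.58 (SE 0.24, adjusted p = 0.37), and Cnn2, a calponin of non-muscle cells, had the opposite sign, -0.46 (SE 0.11, adjusted p = 0.097). Of the myosin genes, the non-muscle regulatory light chains Myl12a and Myl12b had values of opposite sign, 0.55 (SE 0.13, adjusted p = 0.11) and -0.55 (SE 0.15, adjusted p = 0.15). They are near-identical copies whose reads may be split between them.

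Vinculin (Vcl), which links actin to focal adhesions, had 0.65 (SE 0.18, adjusted p = 0.16) and the actin-binding adaptor Pdlim7 had 0.70 (SE 0.18, adjusted p = 0.13). Tgfb2, a ligand of the TGFβ pathway, had 0.81 (SE 0.19, adjusted p = 0.086), and was at 103 and 134 CPM in WT S5 and S6 and at 190 and 190 in Het S7 and S8. Ctgf, a target of TGFβ and YAP, had -0.82 (SE 0.35, adjusted p = 0.38). The adjusted p-values are those of edgeR, with which none of these genes reached the threshold.

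The members varied together over libraries and stages. Over the 24 sums of 8 libraries and 3 OB stages, with the mean of each kit version subtracted, the level of each of 8 members (Cnn1 was too low) had a Pearson correlation with the mean of the other members of 0.93 for Myl9, 0.92 for Tpm2, 0.86 for Tagln, 0.86 for Cald1, 0.85 for Tpm1, 0.84 for Acta2, 0.81 for Actn1 and 0.74 for Tagln2. These are descriptions, since stages of 1 library share its cells' preparation. The non-members most like the members by this measure were Fstl1 (0.93), a secreted protein related to follistatin, and Fgfr2 (0.92), a receptor of osteoprogenitors. Mest, Parva, Akap13, Cmtm3, Lamb1, Ogn, Nsg1 and Cyb5a followed, with 0.90 to 0.86. Of these 10, Parva, which encodes the focal adhesion protein α-parvin, had a log2 fold change in mOBs of 0.39 (SE 0.12, adjusted p = 0.21) and Fgfr2 of 0.06 (SE 0.14, adjusted p = 0.94), and none passed the test.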

How the data were processed

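The values deposited were UMI counts of genes in single cells, with no normalization. The authors obtained them with Cell Ranger (5.0.0 for S1 to S4 and 6.0.1 for S5 to S8, per the file headers; build mm10 per the submitters' processing notes). The features and barcodes lists named the same 31053 genes in each library. Total depth was 30480239 to 85162035 UMIs per library, with 3762.5 to 14264 UMIs per kept cell (medians). Doublets were kept, with an alternative that left out OBs with markers of another class.

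UMI counts were summed per library and class. The sums of mOBs held 664702 to 4805858 UMIs. Levels are counts per 1000000 UMIs of the class (CPM), which do not allow for differences between genes in capture by the 3′ protocol, so genes are not ranked by level. Genes were tested by edgeR 4.0.16 (filterByExpr, TMM, glmQLFit, glmQLFTest) with genotype and kit as terms, and Benjamini-Hochberg adjustment over all genes tested. DESeq2 was an alternative. The fits were tested on simulated data. Fold changes from edgeR use TMM scaling and a prior count. Haematopoietic-like cells had at least 3 haematopoietic markers. Intervals cover counting error only. Nothing in the labels says how many litters a library came from, so p-values measure the spread between libraries.

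The members and gene lists were chosen with earlier results of these data known. Named genes are all 9 members, the called and the 2 most changed genes (mean of at least 20 CPM) of each list, and the 10 non-members most like the members. Alternatives were the OB and Rgs5 selection, Col1a1 limits, mitochondrial limit, thinning, scaling, filter, tool, kit version, blocks and each library left out. Python 3.11.15, scipy 1.17.1 and R 4.3.3 were used.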

Additional observations from a re-analysis of the deposited data

Results flagged for a closer look

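In 90 groups of 4 libraries (9 members, 5 classes of cells, 2 genotypes), 4 had a library whose gap to the nearest of the others was above Dixon's 95% critical value, about as many as chance gives at 1 in 20. Tagln in eOBs of WT S1 was at 138 CPM, against 59.2 to 71.8 in the other WT libraries. Tagln2 in eOBs of WT S6 was at 288, against 404 to 427, and Tagln2 in eOBs of Het S4 at 451, against 373 to 384. Actn1 in other cells of WT S2 was at 76.5, against 121 to 126.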

How the results depend on the processing

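In mOBs, Het exceeded WT for Tagln, Acta2, Tpm2, Tagln2 and Cald1 under 24 of 24 other settings each, for Myl9 and Tpm1 under 23, and for Actn1 under 1, with the adjusted threshold passed under 16 for Tagln, 13 for Acta2, 7 for Tpm2, 4 for Tagln2 and 1 for Myl9. Tagln ran from 1.32 to 2.02 and Acta2 from 1.11 to 2.28 on the log2 scale. Equal weight of the Col1a1 ranges, chosen after seeing the data, gave -0.067 for Tpm2, -0.049 for Myl9 and -0.046 for Tpm1. With no filter on low counts, Tagln, Acta2, Tpm2, Myl9 and Tagln2 were called in mOBs, Acta2 in dOBs (0.53, adjusted p = 0.019) and Tagln in eOBs (0.96, adjusted p = 0.0031). The fits with no filter called 536 of 18427 genes in mOBs, 269 of 19416 in dOBs and 141 of 17733 in eOBs. Nothing is read from any of these calls of members in OBs, under this or the other settings. The number of genes called in mOBs, 49 by edgeR, was 82 with other Col1a1 limits, 380 without OBs holding markers of another class (6 libraries, without S7 and S8), 77 without the top 10% of UMIs, 31 after thinning, 536 with no filter on low counts, 130 with DESeq2, 0 with no kit version in the model, 456 within kit version 3, 2 within version 3.1, and 11 (without S2) to 166 (without S7) with 1 library left out (19, 23, 16 and 26 without S1, S3, S4 and S6, and 154 without S8). In dOBs (1 gene) it was 0 without OBs holding a mural UMI, without the top 10% of UMIs, after thinning, with no scaling and with no kit version, 9 without OBs with markers of another class (6 libraries), 269 with no filter, 4 with DESeq2, 51 within kit version 3, and 0 to 2 with 1 library left out. In eOBs (0 genes) it was 1 with 1 UMI in the selection, 134 without markers of another class (5 libraries), 141 with no filter, 3 with DESeq2, 258 within kit version 3, and 0 to 1 with 1 library left out. In Rgs5 cells (3 genes) it was 0 from 1 Rgs5 UMI, 1 from 5, 7 after thinning, 585 with no filter, 44 with DESeq2, 0 with no kit version, 23 and 484 within kit versions 3 and 3.1, and 0 to 26 with 1 library left out. In other cells (0 genes) it was 258 after thinning, 2175 with DESeq2, 5650 and 1 within kit versions 3 and 3.1, and 0 without any single library. The causes were not tested.

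With a replicate block of same-numbered libraries within a kit version, 25 genes were called in mOBs, 0 in dOBs, 0 in eOBs, 1 in Rgs5 cells and 6 in other cells. Deviations of same-numbered libraries from the group means correlated from -0.14 to 0.08 over genes, with no common sign, so the numbers were not taken to pair the libraries. The labels do not say what same-numbered libraries share.

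In Rgs5 cells, where no call was made, 8 of the 9 members changed sign under some setting and Cnn1 did not. Tagln was at -0.20 after thinning and -0.48 within kit version 3.1. With Rgs5 cells from 1 UMI, Acta2 was at 0.16 and Tpm1 at 0.13. Under 5% mitochondrial UMIs, Acta2 was at 0.18, Tpm2 at 0.013, Myl9 at 0.22, Tagln2 at 0.066 and Actn1 at -0.033. With no kit version, Acta2 was at 0.26, Tpm1 at 0.037, Tpm2 at 0.093 and Myl9 at 0.21. Within kit version 3, Acta2 was at 0.55, Tpm1 at 0.20, Tpm2 at 0.17, Myl9 at 0.46 and Tagln2 at 0.36. Myl9 was at 0.0022 with no scaling and 0.00055 with no filter. Actn1 was at -0.105 after thinning and -0.079 within kit version 3.1, where Cald1 was at -0.040. With 1 library left out, Tagln ran from -0.28 to 0.26, Acta2 from -0.37 to 0.26, Tpm1 from -0.16 to 0.020, Tpm2 from -0.22 to 0.068, Myl9 from -0.34 to 0.15, Tagln2 from -0.22 to 0.050 and Actn1 from -0.025 to 0.13. In other cells within kit version 3.1, Tagln was at -0.47, Tpm1 at -0.39, Tpm2 at -0.46, Myl9 at -0.38, Cnn1 at -0.072 and Cald1 at -0.12, and Actn1 was at 0.062 with no scaling and 0.011 within kit version 3.

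The number of members higher in Rgs5 cells than in OBs was 0 of 9 in WT libraries alone, where 4 libraries cannot reach the threshold. For OBs against other cells it was 3 after thinning, 0 without OBs holding a mural UMI, 0 with 3 UMIs in the selection and 0 in WT libraries alone, where Cnn1 turned to 0.17. The difference in OBs with a mural UMI was 10.1 points within kit version 3.1, and -7.16 to 1.59 points with 1 library left out. The share of Rgs5 cells differed by 1.57 to 2.60 points with 1 library left out. Few cells limit the Col1a1 ranges, and mOB levels near those of haematopoietic-like cells limit the fold changes in kit version 3.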
